A study of Mus musculus with 24 samples.

Results

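The comparison asked whether loss of REV-ERB changed RNA levels differently in group 3 innate lymphoid cells (ILC3) and in group 1 innate lymphoid cells (ILC1) of the mouse small intestine. Each gene's change in double-knockout cells (DKO) relative to wild type (WT) was averaged with equal weight over the 3 ILC3 subsets labelled NKp46, CCR6 and DN, and the DKO change in ILC1 was subtracted. All 24 of the 24 bulk RNA-seq libraries entered, as 3 libraries in each of 8 groups: DKO and WT cells of NKp46, CCR6, DN and ILC1. DKO mice carried floxed alleles of Nr1d1 and Nr1d2 together with a Cre transgene driven by Vav1, a gene expressed throughout the blood lineages, and WT mice were littermates with the same floxed alleles (fl/fl) and no Cre. Mice were 8 to 12 weeks old, and cells came from the lamina propria. The label DN is not spelled out, and nothing says which libraries came from separate mice, so each p-value covers the spread between libraries, which may be partly technical.

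REV-ERBα (gene Nr1d1) and REV-ERBβ (Nr1d2) are nuclear receptors that hold down transcription of circadian clock genes, and they share their DNA elements with ROR receptors, which activate. ILC3 make IL-22 and IL-17, whereas ILC1 depend on T-bet (Tbx21) and make interferon-γ. Clock activators bind a different element, the E-box, and several clock repressors act on that element.

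Deposited gene counts were scaled to library size, in the usual unit CPM, and fitted together for 21286 genes with edgeR's quasi-likelihood test, and p-values were Benjamini-Hochberg adjusted over all of them; genes were called at an adjusted p under 0.05. Libraries held 12763228 to 84395154 counts. One of them, WT ILC1 replicate 2, stood apart: it had the smallest total, and protein-coding genes took 84.1% of its counts, whereas the range elsewhere was 91.6% to 94.9%. Every difference below is set against the 6 ILC1 libraries. Among WT libraries, Ncr1, which encodes NKp46, averaged 824 CPM in NKp46, 9.87 in CCR6, 55.5 in DN and 1614 in ILC1, and Ccr6 averaged 7.54 CPM in NKp46, 1399.6 in CCR6, 40.7 in DN and 4.08 in ILC1. The ILC1 factor Tbx21 averaged 91.4 CPM in NKp46, 1.37 in CCR6, 30.4 in DN and 222 in ILC1. DN libraries also held T cell receptor complex RNA: Cd3e averaged 181 CPM in DKO DN and 574 CPM in WT DN. In bulk libraries, fewer contributing cells and less RNA per cell cannot be told apart.

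The targeted gene Nr1d1 (ENSMUSG00000020889; chromosome 11, 98767932 to 98775333, minus strand) measured 1002 to 1772 CPM (median 1482) in DKO ILC3, against 386 to 643 CPM (median 539.6) in WT ILC3, and 458, 484 and 515 CPM in DKO ILC1, against 104, 49.8 and 133 CPM in WT ILC1. Nr1d2 measured 68.7 to 149 CPM (median 115) in DKO ILC3, against 22 to 67.1 CPM (median 39.4) in WT ILC3, and 36.1, 112 and 107 CPM in DKO ILC1, against 13, 18.7 and 32.5 CPM in WT ILC1. DKO libraries lay above WT libraries for both genes in every population. Counts per gene do not show which exons were read, so these levels do not check the genotype labels. The gain of Nr1d1 was 1.39 ± 0.12 (log2, SE) in ILC3 and 2.34 ± 0.21 in ILC1, a difference of -0.95 ± 0.23 that was not called (adjusted p = 0.059). It was called in 6 of 35 alternative settings, among them DESeq2 and limma voom, which used all libraries. The others were a 5 CPM filter, DN left out of the ILC3 mean, and WT ILC1 replicate 2 or 3 left out. Without WT ILC1 replicate 2 the difference was -0.65, adjusted p = 0.026, and without WT ILC1 replicate 3 it was -1.29, adjusted p = 0.0042. Nr1d1 shares 263 exon bases with Thra on the other strand, and whether reads were assigned by strand is not given in the sources used here. Pfkp, Furin, Srgap3, Zfp385c, Dbp, Tspan4, Gstm5, Cd72 and Ptpn6 also share exon bases with a gene on the other strand that averaged over 1 CPM, St3gal6 with one that averaged 0.761 CPM, and Ncoa7 and Meis1 with one over 1 CPM on the same strand.

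The DKO effect differed between ILC3 and ILC1 at 171 of the 21286 genes, or 0.803%: 73 (0.343%) had a higher log2 effect in ILC3 and 98 (0.46%) a lower one. The median difference over all genes tested was -0.04. In the ILC3 mean itself 2130 genes were called (10.0%; 911 or 4.28% higher and 1219 or 5.73% lower in DKO), and in ILC1 225 (1.06%; 166 or 0.78% higher and 59 or 0.277% lower). Every ILC1 contrast rests on 6 libraries and the ILC3 mean on 18, so these 2 counts do not compare how strongly the populations responded. Of the 171 genes, 106 were called in the ILC3 mean and not in ILC1, with 55 higher and 51 lower in DKO ILC3. Another 28 were called in ILC1 and not in the ILC3 mean, 25 of them higher in DKO ILC1. The effect was called in both and in the same direction for 19 genes, in both and in opposite directions for 8, and in neither for 10. The 3 ILC3 subsets differed from ILC1 in the same direction at 168 of the 171. These genes were picked by the mean of those 3 differences, and each subtracts the same ILC1 libraries. A shared direction is thus largely built in. A group of 3 libraries at 0 counts occurred for 29 of them; no fold change is given for such genes.

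**Figure D1:**
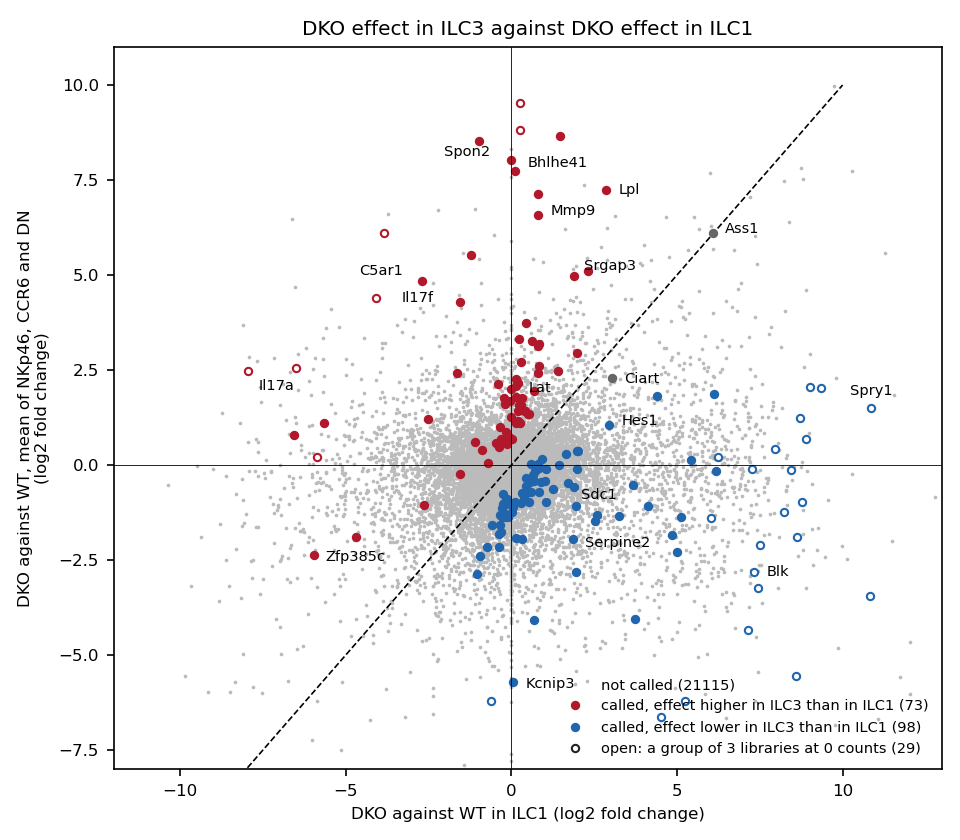
DKO effect over WT in ILC3, as the mean of the 3 subsets (vertical axis, log2 fold change), against the DKO effect in ILC1 (horizontal axis, log2 fold change) for all 21286 genes tested. The dashed line marks equal effects; the 73 genes called above it include Bhlhe41, Mmp9 and Lpl, and the 98 below it include Sdc1 and Serpine2. Open symbols are the 29 called genes with a group of 3 libraries at 0 counts, whose plotted fold change depends on the prior count.

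Bhlhe41 rose in ILC3 and was not called in ILC1; it encodes the E-box-binding clock repressor DEC2 (ENSMUSG00000030256; chromosome 6, 145858243 to 145865558, minus strand, GRCm38). It spanned 61.3 to 282 CPM (median 209) in the 9 DKO ILC3 libraries, against 0.353 to 2.06 CPM (median 0.883) in the 9 WT ILC3 libraries. In ILC1 it measured 2.06, 0.868 and 3.94 CPM in DKO, against 1.16, 4.26 and 1.73 CPM in WT. Every DKO ILC3 library was thus above every other library, while the ILC1 groups overlapped. The log2 effect was 7.74 ± 0.32 in ILC3 and 0.11 ± 0.47 in ILC1, and the difference was 7.63 ± 0.60 (adjusted p = 1.3e-07).

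Lat, an adaptor that links antigen receptors to downstream signalling, also rose in ILC3 (ENSMUSG00000030742; chromosome 7, 126363824 to 126369570, minus strand). Its values were 396, 619 and 442 CPM in DKO NKp46, against 123, 135 and 157 CPM in WT NKp46, 2203, 2159.6 and 2091 in DKO CCR6, against 289.8, 209.8 and 256 in WT CCR6, and 1579, 1941 and 1486 in DKO DN, against 411, 423 and 538 in WT DN. In ILC1 the DKO libraries measured 157, 182 and 180.3 CPM and the WT libraries 153, 142 and 172 CPM, which overlap. The difference was 2.11 ± 0.19 (adjusted p = 9.5e-07), and the gain was larger in CCR6 (3.10 ± 0.17) than in NKp46 (1.81 ± 0.16) or DN (1.87 ± 0.16). Of 18 T cell genes, Lat alone was called in the difference, beside 0.803% of all genes. Cd3e, a chain of the T cell receptor complex, averaged 25 CPM in DKO NKp46 and 12.9 in WT NKp46, 84.3 in DKO CCR6 and 82.9 in WT CCR6, and was lower in DKO DN than in WT DN, as given above. The 18 T cell genes, Lat among them, summed to 2438 to 3013 CPM in DKO NKp46 and 2254 to 2363 CPM in WT NKp46, to 3878 to 4218 in DKO CCR6 and 1606 to 1847 in WT CCR6, to 4625 to 4918 in DKO DN and 5269 to 5635 in WT DN, and to 2699 to 3356 in DKO ILC1 and 2409.5 to 3553 in WT ILC1. The T cell receptor γ gene Tcrg-C1 averaged 949.6 CPM in DKO CCR6 and 449 CPM in WT CCR6. The part of T cell RNA in the Lat result was not tested.

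Transporter and enzyme genes were also called in the ILC3 mean and not in ILC1. Slc41a3, of a magnesium transporter family, spanned 83.1 to 1482 CPM (median 463) in DKO ILC3, against 24.6 to 349 CPM (median 66.9) in WT ILC3. It measured 20.1, 19.1 and 21.7 CPM in DKO ILC1, against 25, 26 and 29.6 CPM in WT ILC1, so that DKO lay above WT within each ILC3 subset and below WT in ILC1. Its difference was 2.53 ± 0.24 (adjusted p = 3.4e-06). Slc16a3, the lactate exporter MCT4, spanned 21.6 to 34.1 CPM (median 27.6) in DKO ILC3 and 2.55 to 11.8 CPM (median 7.81) in WT ILC3, and measured 19.1, 16.3 and 16.2 CPM in DKO ILC1 and 12.6, 23.5 and 9.32 CPM in WT ILC1 (difference 1.96 ± 0.30). Pfkp, a phosphofructokinase of glycolysis, had a difference of 0.84 ± 0.16, with 593 to 1039.9 CPM (median 892) in DKO ILC3 and 281 to 373 CPM (median 340.5) in WT ILC3. In ILC1 Pfkp reached 324, 351 and 371 CPM in DKO and 262, 174 and 299 CPM in WT; the call was lost without DKO ILC1 replicate 1 (0.77, adjusted p = 0.072) or replicate 2 (0.83, adjusted p = 0.057). Slc16a3 and Pfkp were the 2 of 18 glycolysis genes called, beside 0.803% of all genes. The median difference of that list was 0.00, beside -0.04 over all genes. Fam210b, a mitochondrial protein, rose by 1.76 ± 0.09 in ILC3, with an effect of 0.32 ± 0.16 in ILC1 (difference 1.44 ± 0.18). Chsy1, which builds chondroitin sulfate chains, spanned 91.4 to 242 CPM (median 159) in DKO ILC3 and 16.9 to 64.8 CPM (median 40) in WT ILC3, all below the ILC1 values of 354, 367 and 282 CPM in DKO and 305, 325 and 285 CPM in WT (difference 1.94 ± 0.22, adjusted p = 2.4e-05).

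A second set with gains in ILC3 and no call in ILC1 held surface receptors and signalling genes. Gpnmb, a transmembrane glycoprotein, spanned 35.3 to 137 CPM (median 104) in DKO ILC3, against 5.14 to 11.9 CPM (median 7.9) in WT ILC3, and measured 24, 27.5 and 24.3 CPM in DKO ILC1, against 33, 13.4 and 17.8 CPM in WT ILC1 (difference 3.08 ± 0.32, adjusted p = 1.2e-05). C5ar1, the receptor for complement C5a, spanned 2.05 to 91.2 CPM (median 9.21) in DKO ILC3, against 0 to 2.75 CPM (median 0.849) in WT ILC3. It was highest in DKO CCR6 at 91.2, 88.5 and 46.7 CPM, against 1.54, 2.05 and 2.75 CPM in WT CCR6. In ILC1 it measured 1.88, 0.308 and 0.643 CPM in DKO and 9.09, 7.31 and 1.37 CPM in WT (difference 7.55 ± 0.96). The lower mean of C5ar1 in DKO ILC1 than in WT ILC1 adds to this difference. Genes of the myeloid list summed to 363 to 438 CPM in DKO ILC1 and 480 to 1013 CPM in WT ILC1. The part of myeloid RNA in the C5ar1 result was not tested. Pik3r6, a regulatory subunit of phosphoinositide 3-kinase γ, measured 0 in the 3 WT NKp46 libraries and 8.22, 11.4 and 7.75 CPM in DKO NKp46, so no fold change is given; over ILC3 it spanned 7.75 to 41.9 CPM (median 28.6) in DKO and 0 to 0.345 CPM (median 0.0258) in WT. Zfp618, a zinc finger gene, spanned 18.5 to 94.9 CPM (median 62.2) in DKO ILC3 and 0 to 0.779 CPM (median 0.0822) in WT ILC3, and stayed at or below 1.04 CPM in all 6 ILC1 libraries (difference 7.17 ± 0.82). The phosphatase gene Ptpn6 (SHP-1) had a smaller difference of 0.82 ± 0.15, the cyclin gene Ccnd2 one of 0.68 ± 0.13 and the intermediate filament gene Vim one of 1.03 ± 0.16. Ptpn6 lost its call without DKO ILC1 replicate 2, at 0.78, adjusted p = 0.054, and Ccnd2 without DKO ILC1 replicate 3, at 0.61, adjusted p = 0.059. With CCR6 left out of the ILC3 mean the difference was 0.26, adjusted p = 0.53 for Ccnd2 and 0.71, adjusted p = 0.076 for Vim, so that neither was called. Treml2 (3.31 ± 0.67), Angptl2 (6.30 ± 1.29), Pacsin1 (4.07 ± 0.77), Klri2 (2.35 ± 0.37), Nbeal2 (1.98 ± 0.25), Nim1k (2.30 ± 0.41) and Ncald (1.62 ± 0.27) were called in the same direction. Of these 7, Klri2, Nbeal2, Nim1k and Ncald kept the call under each of the 35 alternative settings. Treml2 lost it without WT ILC1 replicate 2 (2.58, adjusted p = 0.06) and without DKO ILC1 replicate 1 or 3, Angptl2 without WT ILC1 replicate 1 or 3 (5.83, adjusted p = 0.098) or DKO ILC1 replicate 3, and Pacsin1 without DKO ILC1 replicate 3 (3.72, adjusted p = 0.054). For Klri2, Nim1k, Ncald and Ptpn6, every DKO ILC1 library also lay above every WT ILC1 library. The ILC1 groups overlapped for Nbeal2, Treml2, Angptl2 and Pacsin1. Klri2 measured 311 to 360 CPM in DKO ILC1, against 126 to 252 CPM in WT ILC1. On the CPM scale the Klri2 contrast had the other sign, with the larger gain in ILC1.

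The promoters of several of these genes hold the E-box letters CACGTG, a palindrome that reads the same on both strands. In RefSeq's promoter table (GRCm38.p6), 13 of 54 genes with a higher effect in ILC3 and a listed promoter held CACGTG in the 250 bases before a gene start, or 24.1%, and 7 of 70 genes with a lower effect, or 10%. Among all 12079 tested genes with a listed promoter the share was 9.26%. Among 656 genes higher in DKO in the ILC3 mean it was 14.3%, and among 117 genes higher in DKO in ILC1 it was 14.5%. The letters were searched after the called genes were seen, and the shares are a description with no test. Windows of 4 genes that rose in ILC3 and had no call in ILC1 follow, with one of Ciart, a clock repressor that rose in both ILC3 and ILC1; CACGTG is in capitals.
Bhlhe41 (chr6:145865421-145865670, minus strand): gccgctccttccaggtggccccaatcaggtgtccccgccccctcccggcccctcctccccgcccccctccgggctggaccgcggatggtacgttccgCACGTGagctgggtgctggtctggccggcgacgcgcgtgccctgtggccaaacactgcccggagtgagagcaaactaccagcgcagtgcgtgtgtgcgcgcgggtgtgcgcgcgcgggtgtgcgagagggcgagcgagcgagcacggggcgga
Lat (chr7:126369569-126369818, minus strand): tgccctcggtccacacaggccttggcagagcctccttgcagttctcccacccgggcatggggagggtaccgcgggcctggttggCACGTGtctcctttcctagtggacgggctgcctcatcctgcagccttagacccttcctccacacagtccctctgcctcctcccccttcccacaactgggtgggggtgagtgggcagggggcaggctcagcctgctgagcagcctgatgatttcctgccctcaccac
Slc41a3 (chr6:90618996-90619245, plus strand): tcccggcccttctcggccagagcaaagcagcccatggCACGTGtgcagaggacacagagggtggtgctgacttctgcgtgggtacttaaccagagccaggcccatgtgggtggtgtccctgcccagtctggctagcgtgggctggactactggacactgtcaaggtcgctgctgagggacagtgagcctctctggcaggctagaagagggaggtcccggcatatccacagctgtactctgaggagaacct
Chsy1 (chr7:66109242-66109491, plus strand): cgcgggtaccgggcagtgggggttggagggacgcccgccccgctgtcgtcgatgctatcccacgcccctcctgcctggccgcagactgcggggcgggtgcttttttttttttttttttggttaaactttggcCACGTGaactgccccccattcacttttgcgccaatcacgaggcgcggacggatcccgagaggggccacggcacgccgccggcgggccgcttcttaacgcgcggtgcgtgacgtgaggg
Ciart (chr3:95882229-95882478, minus strand): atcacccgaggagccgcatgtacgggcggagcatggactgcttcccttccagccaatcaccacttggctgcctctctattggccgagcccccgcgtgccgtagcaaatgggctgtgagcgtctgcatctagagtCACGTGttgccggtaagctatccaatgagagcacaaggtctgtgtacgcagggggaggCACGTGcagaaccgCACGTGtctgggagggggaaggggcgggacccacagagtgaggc
Counted from RefSeq's gene starts, the letters begin 153 bases before Bhlhe41, 166 before Lat, 213 before Slc41a3 and 118 before Chsy1. RefSeq's start of Bhlhe41 lies inside the gene span given above, so part of that window does too. The Ciart window holds the letters 3 times.

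The elements that REV-ERB and ROR share were searched as TAGGTCA and TGGGTCA on both strands. They were in 1 of the 54 windows of genes with a higher effect in ILC3 (1.85%), in 7 of the 70 with a lower effect (10%) and in 5.6% of all tested genes. Zfp385c, whose log2 fall was larger in ILC1 than in ILC3, and Il23r, which fell in both, hold TAGGTCA, shown in capitals.
Zfp385c (chr11:100650694-100650943, minus strand): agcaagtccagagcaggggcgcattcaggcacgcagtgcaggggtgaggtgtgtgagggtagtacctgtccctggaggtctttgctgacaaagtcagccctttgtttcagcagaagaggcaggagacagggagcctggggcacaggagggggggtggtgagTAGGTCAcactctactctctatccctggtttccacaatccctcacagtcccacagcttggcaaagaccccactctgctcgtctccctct
Il23r (chr6:67491856-67492105, minus strand): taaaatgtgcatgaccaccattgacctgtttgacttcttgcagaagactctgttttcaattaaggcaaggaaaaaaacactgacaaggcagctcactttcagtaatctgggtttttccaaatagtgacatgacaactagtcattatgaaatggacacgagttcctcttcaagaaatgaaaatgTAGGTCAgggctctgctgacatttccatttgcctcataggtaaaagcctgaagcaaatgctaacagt
A match is a run of letters and does not show binding.

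Among cytokine genes of ILC3, Il17f and Il17a were called, 2 of 6 members tested, beside 0.803% of all genes. Il17f spanned 56 to 898 CPM (median 661) in DKO ILC3, against 1.97 to 119 CPM (median 21.8) in WT ILC3, with DKO above WT within each subset. In ILC1 it measured 0.0449, 0 and 0.313 CPM in DKO and 0, 0.161 and 0.991 CPM in WT. The difference was 5.84 ± 1.13 (adjusted p = 0.011), and the ILC1 level it is set against rests on WT ILC1 replicate 3: without that library the value was 2.59, adjusted p = 0.72. Il17a measured 135, 135 and 159 CPM in DKO CCR6, against 46.3, 25.5 and 21.3 CPM in WT CCR6, and 22.5, 26.1 and 20.1 in DKO DN, against 10.7, 6.77 and 12.6 in WT DN. Il17a was at 0 in the 3 DKO ILC1 libraries and at 0, 0.0804 and 1.7 CPM in WT ILC1, so no fold is given, and its call too was lost without WT ILC1 replicate 3. Spon2, a secreted matrix protein, had the same weakness: it spanned 33.5 to 1418 CPM (median 527) in DKO ILC3 and 0 to 19.9 CPM (median 1.42) in WT ILC3, and its difference of 8.05 ± 1.23 became 3.41, adjusted p = 0.68 without that library. For Il22 the interval of the difference was -0.54 to 1.43.

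Genes that rose in both but more in ILC3 included 3 with large effects. Mmp9, a secreted matrix-degrading protease (ENSMUSG00000017737; chromosome 2, 164940780 to 164955850, plus strand), spanned 721 to 1012 CPM (median 908) in DKO ILC3, against 3.69 to 21 CPM (median 7.85) in WT ILC3. In ILC1 it measured 348, 311 and 361 CPM in DKO, against 175, 185 and 223 CPM in WT. WT ILC1 thus already stood above WT ILC3, and DKO ILC3 rose above DKO ILC1. The log2 effect was 6.58 ± 0.14 in ILC3 and 0.81 ± 0.19 in ILC1, with a difference of 5.77 ± 0.24 (adjusted p = 1.3e-12). Lpl, the lipase that releases fatty acids from lipoproteins (ENSMUSG00000015568; chromosome 8, 68880491 to 68907448, plus strand), spanned 27.8 to 125 CPM (median 83.5) in DKO ILC3 and 0.111 to 1.1 CPM (median 0.398) in WT ILC3, and measured 39.2, 29.4 and 37.9 CPM in DKO ILC1 and 5.45, 2.25 and 6.56 CPM in WT ILC1. DKO CCR6 and DKO ILC1 reached similar Lpl levels, from lower WT levels in CCR6; the difference was 4.38 ± 0.50 (adjusted p = 2.9e-05). Of 22 genes of lipid uptake and oxidation, Lpl alone was called in the difference, beside 0.803% of all genes. Srgap3, a GTPase-activating protein, spanned 386 to 649 CPM (median 493) in DKO ILC3 and 11.4 to 20.6 CPM (median 14.9) in WT ILC3, and measured 93.2, 122 and 144 CPM in DKO ILC1 and 25.2, 40 and 33 CPM in WT ILC1 (difference 3.09 ± 0.23, adjusted p = 5.1e-08). Acat1, a mitochondrial enzyme of ketone body and isoleucine breakdown, rose by 1.96 ± 0.07 in ILC3 and 0.70 ± 0.11 in ILC1, and the protease gene Furin by 2.47 ± 0.11 in ILC3 and 1.40 ± 0.18 in ILC1. The Furin call was lost without DKO ILC1 replicate 1, at 0.95, adjusted p = 0.054.

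**Figure D2:**
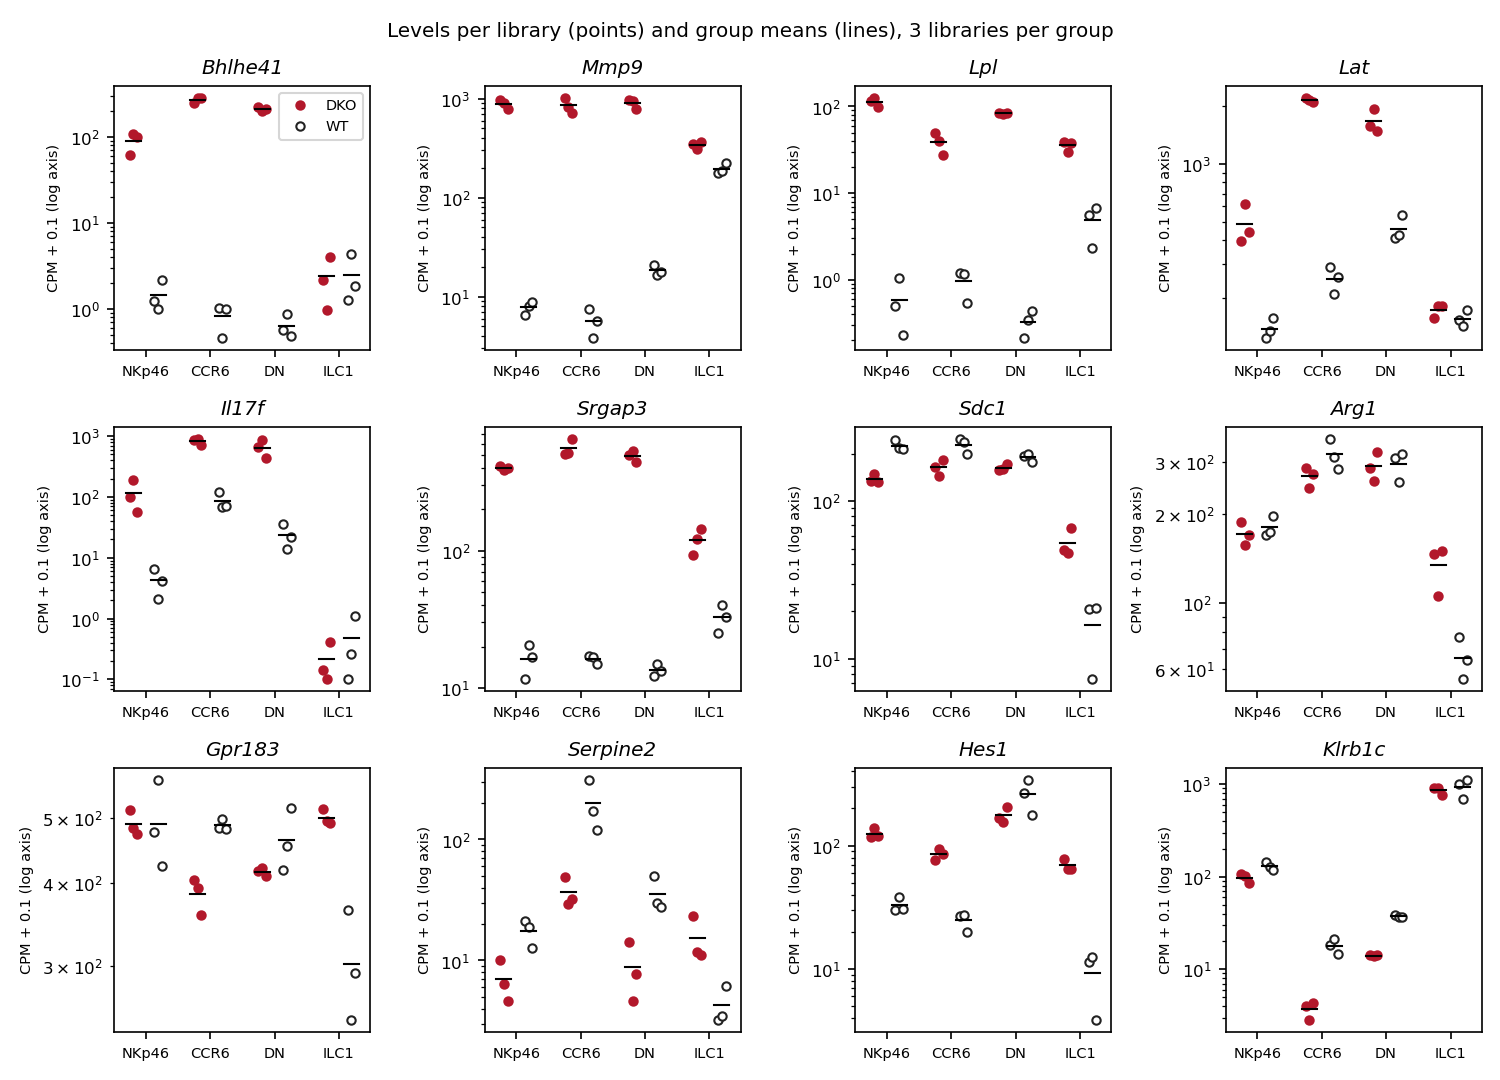
Level of 12 genes in each of the 24 libraries (points; CPM + 0.1 on a log axis) with group means (lines); filled points are DKO and open points WT, 3 libraries per group. Bhlhe41 is at 61.3 CPM or more in every DKO ILC3 library and at 4.26 CPM or less in every other library, while the Arg1 libraries of DKO and WT overlap in every ILC3 subset and not in ILC1.

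Among genes with a lower effect in ILC3, 51 were called as lower in DKO ILC3 and not called in ILC1. Among them were Klrb1c, Klrb1a and Klrb1f, of the lectin-like receptors of natural killer cells. Klrb1c, which encodes NK1.1, a marker of ILC1 and natural killer cells, measured 107, 101 and 85 CPM in DKO NKp46, against 143, 127 and 118 CPM in WT NKp46. It measured 3.87, 2.7 and 4.19 CPM in DKO CCR6, against 18.1, 21.3 and 14.4 in WT CCR6, and 14.1, 13.8 and 14.1 in DKO DN, against 38.5, 36.7 and 36.4 in WT DN. In ILC1 the libraries overlapped, at 921, 917 and 766 CPM in DKO and 998, 696 and 1109 CPM in WT. The difference was -1.27 ± 0.19 (adjusted p = 0.0012); with CCR6 left out of the ILC3 mean it was -0.80, adjusted p = 0.1. The neighbouring family members Klrb1a (-1.26 ± 0.25) and Klrb1f (-1.13 ± 0.25) were lower too, whereas Klrc2 (1.80 ± 0.43), Klri1 (2.40 ± 0.54) and Klri2 went the other way. Reads shared between such similar genes could be split by the counting, so single members are uncertain. Klrc2 lost its call in 27 of the 35 alternative settings, Klri1 in 19, Klrb1f in 12 and Klrb1a in 4. Both Klrb1a and Klrb1f lost theirs without DKO ILC1 replicate 1 (-1.21, adjusted p = 0.051 for Klrb1a) or replicate 2 (-1.13, adjusted p = 0.089 for Klrb1f), and with CCR6 left out of the ILC3 mean (-1.15, adjusted p = 0.061 for Klrb1a and -0.95, adjusted p = 0.14 for Klrb1f). Klrb1f also lost it without WT ILC1 replicate 2, at -0.91, adjusted p = 0.084. Of 36 type 1 and cytotoxic genes, Klrb1c was called lower and Klrc2 higher, beside 0.46% of all genes lower and 0.343% higher. The list's median difference was -0.27, beside -0.04 over all genes.

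Regulators and enzymes made up other parts of the lower set. Batf, an AP-1 family transcription factor, spanned 21.8 to 42.3 CPM (median 32.9) in DKO ILC3, against 39.1 to 93.4 CPM (median 62.6) in WT ILC3, and measured 57.3, 48.9 and 47 CPM in DKO ILC1, against 66.6, 36.6 and 38.3 CPM in WT ILC1. Its difference of -1.10 ± 0.25 (adjusted p = 0.033) lost the call in 16 of the 35 settings. Among them were leaving out any single DKO ILC1 library, and WT ILC1 replicate 3 or replicate 2 (-0.95, adjusted p = 0.095). Leaving out some single ILC3 libraries did the same, for example WT NKp46 replicate 1, DKO CCR6 replicate 2 or WT DN replicate 1. St3gal6, a sialyltransferase, spanned 7.44 to 111 CPM (median 48.8) in DKO ILC3 and 63.7 to 263 CPM (median 174) in WT ILC3, while ILC1 held 146, 150.3 and 146 CPM in DKO and 202, 139 and 228 CPM in WT (difference -1.78 ± 0.22, adjusted p = 6.7e-05). Cyp2j6, a cytochrome P450, spanned 5.78 to 23.7 CPM (median 9.26) in DKO ILC3 and 26.6 to 62.9 CPM (median 43.7) in WT ILC3, against 26.9, 27.5 and 23.8 CPM in DKO ILC1 and 29.6, 10.9 and 21.9 CPM in WT ILC1 (difference -2.26 ± 0.32). Ddc, the aromatic amino acid decarboxylase, measured 13.3, 19 and 18 CPM in DKO CCR6 and 159, 151 and 165 CPM in WT CCR6, with 12.1, 11.1 and 7.85 in DKO ILC1 and 0, 1.61 and 6.07 in WT ILC1 (difference -4.75 ± 0.76, adjusted p = 0.0019). Gdpd1 (-4.76 ± 0.79), Kcnip3 (-5.76 ± 1.08), Psd2 (-2.05 ± 0.28), Slc29a1, a nucleoside transporter (-1.16 ± 0.20), Jaml, an adhesion molecule (-0.97 ± 0.17), Stap1 (-1.22 ± 0.22) and Cd72 (-0.84 ± 0.17) also fell in ILC3 with no call in ILC1. Among these 7, Cd72 lost the call without DKO ILC1 replicate 1 (-0.78, adjusted p = 0.093) or replicate 2, Kcnip3 with NKp46 left out of the ILC3 mean (-3.86, adjusted p = 0.075), and Cd72 and Slc29a1 with CCR6 left out of it (-0.93, adjusted p = 0.057 for Slc29a1). Ncoa7, a nuclear receptor coactivator gene, and Ccdc184 fell in both and more in ILC3. The effect on Ncoa7 was -2.15 ± 0.10 in ILC3 and -0.74 ± 0.17 in ILC1, and that on Ccdc184 was -2.87 ± 0.12 in ILC3 and -1.03 ± 0.20 in ILC1.

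Some genes of the lower set were near the detection limit in ILC1, so that the ILC1 side of the difference carries little information. Blk, a Src family kinase, measured 11.9, 8.76 and 8.38 CPM in DKO DN, against 117, 115 and 161 CPM in WT DN, and 87.2, 62 and 74.4 in DKO CCR6, against 169.6, 138 and 169.6 in WT CCR6. In ILC1 Blk measured 0, 1.26 and 0.104 CPM in DKO and 0 in the 3 WT libraries. Adm, which encodes the peptide adrenomedullin, spanned 0 to 1.1 CPM (median 0.494) in DKO ILC3 and 1.37 to 32.6 CPM (median 8.36) in WT ILC3, with 0.538, 0.476 and 0.104 CPM in DKO ILC1 and 0.0645, 0 and 0 CPM in WT ILC1. Gchfr, the regulator of GTP cyclohydrolase, Pdia5, a protein disulfide isomerase, and Il33, an alarmin cytokine, were likewise at 0 in all 3 WT ILC1 libraries. The call of Gchfr was lost without any single WT ILC1 library and without DKO ILC1 replicate 3. Those of Blk and Pdia5 were lost without WT ILC1 replicate 1 or 2 and without DKO ILC1 replicate 2. Replicate 2 of DKO ILC1 alone among ILC1 libraries held more than 1 CPM of either gene. The Il33 call was kept under all 35 settings, although its DKO ILC1 libraries ranged from 0.208 to 14 CPM. In ILC3 Il33 spanned 0 to 4.46 CPM (median 1.45) in DKO and 0.653 to 15.2 CPM (median 1.6) in WT. Of the 171 genes, 26 stayed under a mean of 1 CPM in both ILC1 groups and 1 stayed under it in all 6 ILC3 groups.

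Genes that changed in ILC1 with no call in the ILC3 mean were mostly higher in DKO ILC1. Gpr183, a receptor that guides cells along oxysterol gradients, measured 358 to 515 CPM (median 416) in DKO ILC3, against 418 to 569.6 CPM (median 482) in WT ILC3, and 515, 494 and 492 CPM in DKO ILC1, against 365, 249 and 293 CPM in WT ILC1. DKO lay above WT in ILC1, below WT in CCR6 and overlapped it in NKp46 and DN. Its effect was -0.17 ± 0.07 in the ILC3 mean and 0.73 ± 0.12 in ILC1, and the difference -0.89 ± 0.14 (adjusted p = 0.0017). Arg1, which splits arginine into ornithine and urea, measured 157 to 323 CPM (median 258) in DKO ILC3, against 169 to 357 CPM (median 283) in WT ILC3, and 146, 106 and 149.9 CPM in DKO ILC1, against 76.8, 55.1 and 64.1 CPM in WT ILC1. DKO and WT overlapped in every ILC3 subset and did not overlap in ILC1; the difference was -1.15 ± 0.17 (adjusted p = 9.3e-04). Ass1, which joins citrulline and aspartate on the way to arginine, rose in both: it measured 309 to 563 CPM (median 442) in DKO ILC3, against 1.44 to 14.4 CPM (median 4.54) in WT ILC3, and 239, 233 and 235 CPM in DKO ILC1, against 0.613, 3.78 and 6.05 CPM in WT ILC1. The interval of its difference was -1.11 to 1.19. Of 11 tested arginine genes, Arg1 alone was called, beside 0.803% of all genes.

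Other genes raised in DKO ILC1 were not called in the ILC3 mean either. For Plin3, a lipid droplet coat protein, the effect was 0.03 ± 0.05 in ILC3 and 0.61 ± 0.10 in ILC1 (difference -0.58 ± 0.11). For Slc25a4, the mitochondrial ADP/ATP carrier, it was 0.03 ± 0.08 in ILC3 and 0.82 ± 0.14 in ILC1 (difference -0.79 ± 0.16), and for the homeobox gene Meis1 0.36 ± 0.16 in ILC3 and 1.98 ± 0.29 in ILC1 (difference -1.62 ± 0.32). Itgb4, an integrin chain, measured 22.9 to 51.8 CPM (median 37.6) in DKO ILC3, against 22.6 to 42.8 CPM (median 38.4) in WT ILC3, and 3.23, 5.29 and 3.65 CPM in DKO ILC1, against 2.03, 0.563 and 1.6 CPM in WT ILC1 (difference -1.44 ± 0.32). Itgb4 lost its call in 14 of the 35 settings, among them without DKO ILC1 replicate 2 (-1.22, adjusted p = 0.14) or replicate 3. Leaving out some single NKp46, CCR6 or DN libraries also ended the Itgb4 call. Slc25a4 lost its call without DKO ILC1 replicate 2 or 3 (-0.78, adjusted p = 0.059) and Meis1 without DKO ILC1 replicate 3 (-1.48, adjusted p = 0.06). Lta, the lymphotoxin α gene, was higher in DKO NKp46 (90.1, 89.9 and 90.1 CPM) than in WT NKp46 (66.6, 65.6 and 76.1 CPM) and lower in DKO CCR6 (149, 161 and 177 CPM) than in WT CCR6 (206, 212 and 215 CPM). In ILC1 Lta measured 43.2, 45.8 and 65 CPM in DKO, against 24.7, 27.2 and 29.2 CPM in WT. The Lta difference of -0.77 ± 0.17 lost its call in 14 of 35 settings, among them without WT ILC1 replicate 1 or 2 (-0.78, adjusted p = 0.055) and without DKO ILC1 replicate 3. Batf, Lta and Gpr183 were the 3 of 20 genes of the ILC3 identity list called in the difference, all lower, beside 0.46% of all genes. The list's median difference was -0.32, beside -0.04 over all genes. The list was chosen with earlier results of these data known.

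Hes1, Spry1 and Plpp3 were called as higher in DKO in both ILC3 and ILC1, with the larger log2 effect in ILC1. Hes1, a repressor downstream of Notch, measured 117, 138 and 119 CPM in DKO NKp46, against 29.8, 38 and 30.6 CPM in WT NKp46, and 76.1, 93.9 and 84.9 CPM in DKO CCR6, against 26.7, 27.4 and 19.9 CPM in WT CCR6. In DN the values were 167, 155 and 206 CPM in DKO and 265, 339.9 and 178 CPM in WT, which overlap, and in ILC1 78.4, 64 and 64.7 CPM in DKO and 11.2, 12.5 and 3.73 CPM in WT. The difference was -1.90 ± 0.34 (adjusted p = 0.0056); with DN left out of the ILC3 mean it was -1.09, adjusted p = 0.16. Spry1, an inhibitor of receptor tyrosine kinase signalling, spanned 10.6 to 36.3 CPM (median 28.9) in DKO ILC3 and 4.11 to 17.6 CPM (median 9.16) in WT ILC3, and measured 1.79, 7.84 and 6.19 CPM in DKO ILC1 and 0 in the 3 WT ILC1 libraries. Plpp3, a lipid phosphate phosphatase, rose by 1.83 ± 0.26 in ILC3 and 4.40 ± 0.53 in ILC1. In ILC1 Plpp3 spanned 14.5 to 18.9 CPM in DKO and 0 to 1.8 CPM in WT. On the CPM scale the contrast had the other sign for Spry1 and Plpp3, with the larger gain in ILC3. The Plpp3 call was lost without DKO ILC1 replicate 1 or 2 and without WT ILC1 replicate 1 (-2.06, adjusted p = 0.063).

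Opposite directions were called at 8 genes: Sdc1, Serpine2, Gstm1, Kcnk1, Hmgn3, Papss2, Il33 and Add3. Sdc1, which encodes the heparan sulfate proteoglycan syndecan-1, measured 132 to 182 CPM (median 156) in DKO ILC3, against 177 to 247 CPM (median 212) in WT ILC3, and 48.6, 47 and 67.4 CPM in DKO ILC1, against 20.7, 7.31 and 20.9 CPM in WT ILC1. DKO lay below WT in each ILC3 subset and above WT in ILC1. The effect was -0.47 ± 0.13 (adjusted p = 0.025) in ILC3 and 1.71 ± 0.24 (adjusted p = 1.9e-04) in ILC1, and the difference -2.18 ± 0.27 (adjusted p = 8.9e-05). Syndecan-1 also marks plasma cells, and the immunoglobulin gene Igkc averaged 159.6 CPM in DKO NKp46 and 47.2 in WT NKp46, 24.8 in DKO CCR6 and 195 in WT CCR6, 163 in DKO DN and 38.8 in WT DN, and 265 in DKO ILC1 and 59.5 in WT ILC1. The 13 genes of the B cell and plasma cell list summed to 1099 to 1865 CPM in DKO ILC1 and 690.0 to 918 CPM in WT ILC1. Of the 11 that were tested, Sdc1 alone was called, beside 0.803% of all genes. The part of B cell and plasma cell RNA in the Sdc1 result was not tested. Serpine2, an inhibitor of serine proteases, measured 4.49 to 48.5 CPM (median 9.91) in DKO ILC3, against 12.5 to 309.8 CPM (median 29.5) in WT ILC3, and 23.1, 11.6 and 11.1 CPM in DKO ILC1, against 3.1, 3.38 and 6 CPM in WT ILC1 (difference -3.79 ± 0.52, adjusted p = 2.9e-04). Kcnk1, a potassium channel, measured 207 to 278 CPM (median 253) in DKO ILC3, against 265 to 432 CPM (median 312) in WT ILC3, and 125, 124 and 141 CPM in DKO ILC1, against 92.8, 47.3 and 99.9 CPM in WT ILC1 (difference -1.12 ± 0.19). Hmgn3, a nucleosome-binding protein, had a difference of -2.46 ± 0.46, with 128, 122 and 113 CPM in DKO CCR6 and 251, 256 and 241 CPM in WT CCR6, and 0.673, 1.32 and 0.73 CPM in DKO ILC1 and 0.29, 0 and 0.305 CPM in WT ILC1. Papss2, an enzyme that makes the sulfate donor PAPS, measured 0.23, 1.3 and 1.37 CPM in DKO CCR6 and 6.31, 6.11 and 6.77 CPM in WT CCR6, and 0.269, 1.68 and 1.2 CPM in DKO ILC1 and 0.0322, 0 and 0.0508 CPM in WT ILC1. Both were near the detection limit in WT ILC1, and Hmgn3 lost its call without DKO ILC1 replicate 2 (-2.11, adjusted p = 0.052). Gstm1, a glutathione transferase with close paralogs, had a difference of -1.33 ± 0.25; with CCR6 left out of the mean it was -0.94, adjusted p = 0.15. Add3, a membrane skeleton protein, had a gain in the ILC3 mean and a loss in ILC1 (-0.88 ± 0.19), and its gain was in CCR6, at 161, 154 and 150.5 CPM in DKO and 31, 40.6 and 46.3 CPM in WT. In NKp46 the DKO libraries lay below the WT libraries for Add3, and with CCR6 left out of the ILC3 mean the difference was 0.48, adjusted p = 0.49.

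**Figure D3:**
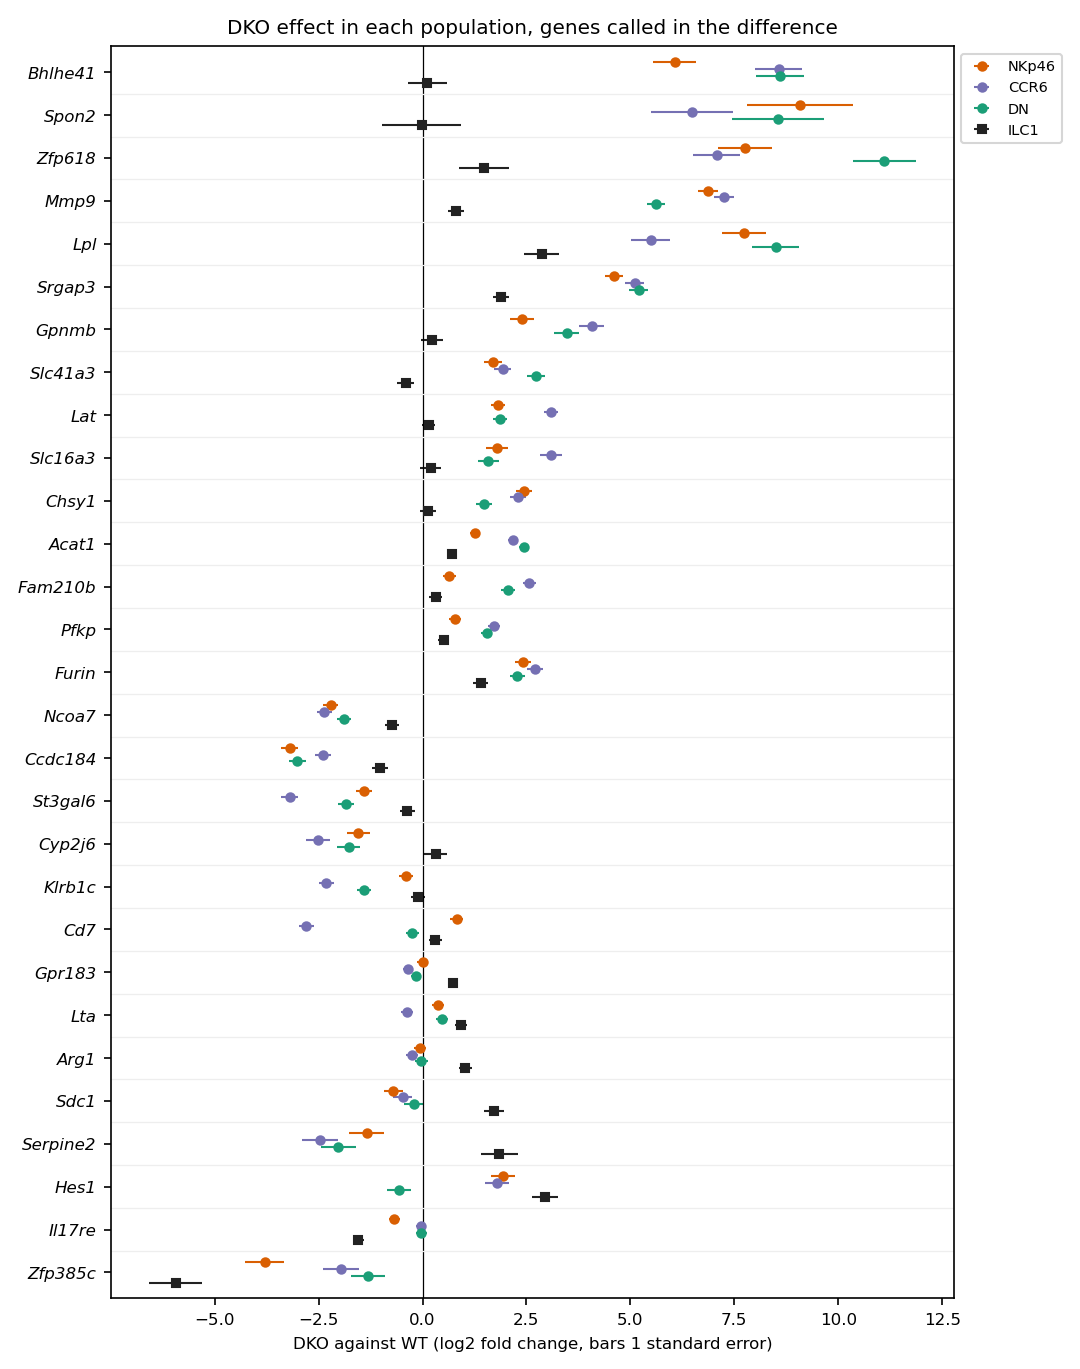
DKO effect over WT (log2 fold change, bars 1 standard error) in NKp46, CCR6, DN (circles) and ILC1 (squares) for 29 of the called genes. Bhlhe41 lies between 6.07 and 8.60 in the ILC3 subsets and at 0.11 in ILC1. Cd7 shows a subset, CCR6, apart from the other ILC3 subsets. Klrb1c falls most in CCR6 and least in NKp46, with DN between them.

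Il17re, Basp1 and Zfp385c fell in both, with the larger log2 fall in ILC1. On the CPM scale the contrast had the other sign for each of them. Il17re, a receptor chain for IL-17C, measured 141 to 391 CPM (median 245) in DKO ILC3, against 208 to 364 CPM (median 273) in WT ILC3, and 11.4, 12.8 and 14.6 CPM in DKO ILC1, against 39.8, 40.3 and 33.1 CPM in WT ILC1 (difference 1.3 ± 0.15, adjusted p = 3.0e-05). For Basp1 the effect was -1.05 ± 0.14 in ILC3 and -2.63 ± 0.27 in ILC1, a difference of 1.58 ± 0.29. Zfp385c, a zinc finger gene, measured 1.73 to 16.5 CPM (median 10.2) in DKO ILC3, against 29.4 to 49.2 CPM (median 35.9) in WT ILC3, and 0, 0.056 and 0.122 CPM in DKO ILC1, against 1.45, 8.68 and 4.52 CPM in WT ILC1. DKO lay below WT in all 4 populations; the difference of 3.59 ± 0.68 lost its call without DKO ILC1 replicate 2 (3.41, adjusted p = 0.052).

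Most clock genes had no called difference. In the ILC3 mean 8 of 10 clock repressors were higher in DKO (4.28% of all genes) and in ILC1 4 of 10 (0.78% of all genes), but Bhlhe41 was the only one called in the difference, and the list's median difference was 0.17. The other 9 spanned differences of -0.95 for Nr1d1 to 0.99 for Cry2. The list thus counts Nr1d1, a gene targeted in these mice, whose counts were higher in DKO in every population. Ciart measured 24.2 to 46.3 CPM (median 29.5) in DKO ILC3, against 4.9 to 14.1 CPM (median 6.01) in WT ILC3, and 24.1, 21.4 and 26.1 CPM in DKO ILC1, against 3.48, 2.09 and 3 CPM in WT ILC1, with an interval for the difference of -1.38 to -0.14 and an adjusted p of 0.30. Per3, a Period gene, had an interval of 0.01 to 1.37 (adjusted p = 0.43). The interval of the clock activator Npas2 was -0.66 to 1.54 and that of its relative Arntl -0.72 to 0.61. The list of clock-driven PAR bZIP transcription factors and their opponent Nfil3 had 4 of 4 differences above 0: Tef 1.29 ± 0.42, Hlf 1.02 ± 0.38, Dbp 1.01 ± 0.46 and Nfil3 0.53 ± 0.25, none called. Dbp measured 62.3 to 104 CPM (median 83.6) in DKO ILC3, against 4.81 to 16.2 CPM (median 7.85) in WT ILC3, and 27.6, 24.9 and 38.1 CPM in DKO ILC1, against 11.3, 4.98 and 3.1 CPM in WT ILC1. A p that misses the threshold does not show that the effects are equal.

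**Figure D4:**
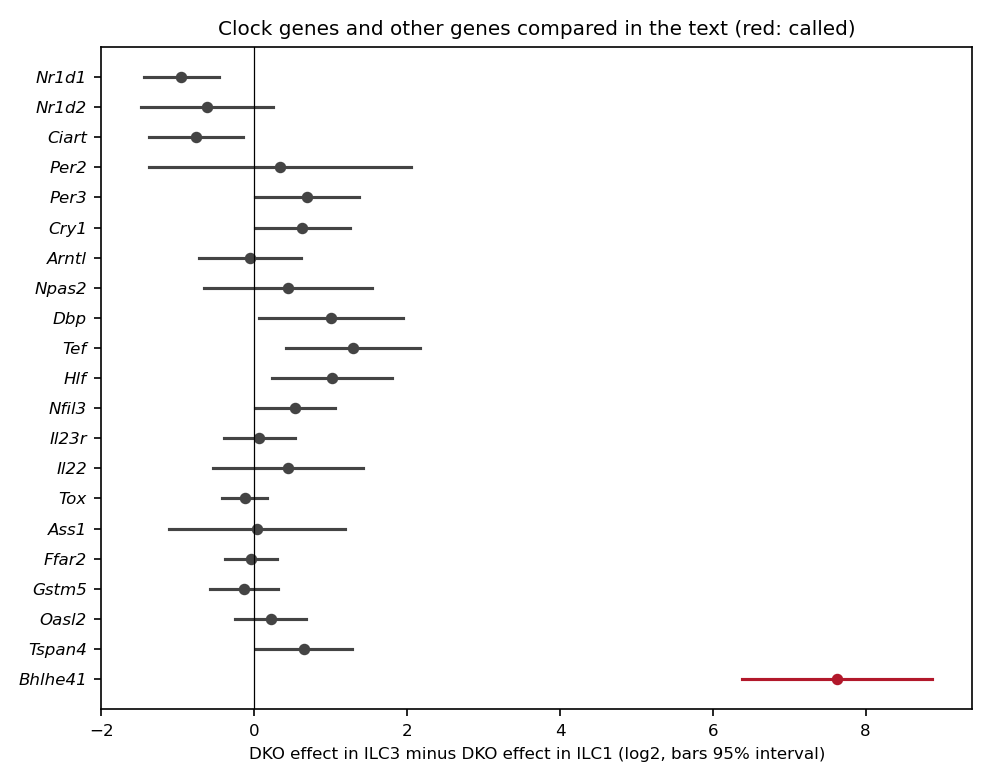
DKO effect in ILC3 minus that in ILC1 (log2, bars 95% interval) for clock genes and other genes compared in the text; red marks the gene called. Bhlhe41 at 7.63 stands apart, and the intervals of Il23r, Tox, Ffar2 and Ass1 include 0.

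Outside the clock, Il23r, Ffar2, Gstm5, Tox and Tspan4 were called in both the ILC3 mean and ILC1, in the same direction, and not in the difference. Il23r, the receptor chain for IL-23, measured 41.3 to 177 CPM (median 102) in DKO ILC3, against 166 to 325 CPM (median 212) in WT ILC3, and 12.7, 7.17 and 13.2 CPM in DKO ILC1, against 25.2, 26.8 and 28.3 CPM in WT ILC1. Its effect was -1.21 ± 0.11 in ILC3 and -1.28 ± 0.20 in ILC1, and the interval of the difference was -0.40 to 0.53. The short-chain fatty acid receptor Ffar2 had an interval of -0.39 to 0.30, the glutathione transferase Gstm5 one of -0.58 to 0.31, and Tox, a transcription factor of lymphoid cell development, one of -0.43 to 0.17. Tspan4, with gains of 3.68 ± 0.17 in ILC3 and 3.03 ± 0.28 in ILC1, had an interval of 0.02 to 1.28. Crybb2, a lens crystallin gene, spanned 124 to 356 CPM (median 259) in DKO ILC3 and 0 to 0.166 CPM (median 0) in WT ILC3, and measured 9.65, 4.59 and 7.54 CPM in DKO ILC1 and 0 in the 3 WT ILC1 libraries; with 3 WT groups at 0 the difference had no usable error.

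The ILC3 subsets did not move together at every gene. Differences from ILC1 were called at 119 genes for NKp46 (0.559%), 249 for CCR6 (1.17%) and 73 for DN (0.343%), and 31 of the 171 were called in each. The DKO effect differed among the 3 subsets at 126 genes (0.592%, test with 2 degrees of freedom), 23 of them among the 171. Cd7, a surface protein of T and innate lymphoid cells, had the smallest adjusted p of this test among the named genes: it measured 69.2, 56.7 and 69.3 CPM in DKO CCR6, against 404, 551 and 398 CPM in WT CCR6, and 363, 321 and 283 in DKO NKp46, against 174, 212 and 161 in WT NKp46. In ILC1 Cd7 was at 593, 526 and 509.7 CPM in DKO and 525, 374 and 415 CPM in WT. The difference was -1.05 ± 0.18, and with CCR6 left out of the mean it was -0.02, adjusted p = 1.00. Lgals1, encoding galectin-1, rose by 2.87 ± 0.28 in CCR6, 1.35 ± 0.27 in DN and 0.83 ± 0.27 in NKp46, with -0.05 ± 0.26 in ILC1. Zfp36l2, which binds AU-rich RNA, rose by 1.83 ± 0.24 in NKp46 and 1.36 ± 0.24 in CCR6, with effects of -0.20 ± 0.23 in DN and -0.35 ± 0.23 in ILC1; its call in the difference was lost without DKO ILC1 replicate 2 or 3. With CCR6 left out of the mean, 74 genes were called in place of 171. Beside the genes for which this is given above, Batf, Pfkp, Furin, Treml2, Angptl2, Gchfr, Plin3, Slc25a4, Meis1, Itgb4, Lta, Plpp3, Klrc2, Klri1, Lgals1 (1.14, adjusted p = 0.15), Zfp36l2 (1.16, adjusted p = 0.085) and Ctss were then not called.

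**Figure D5:**
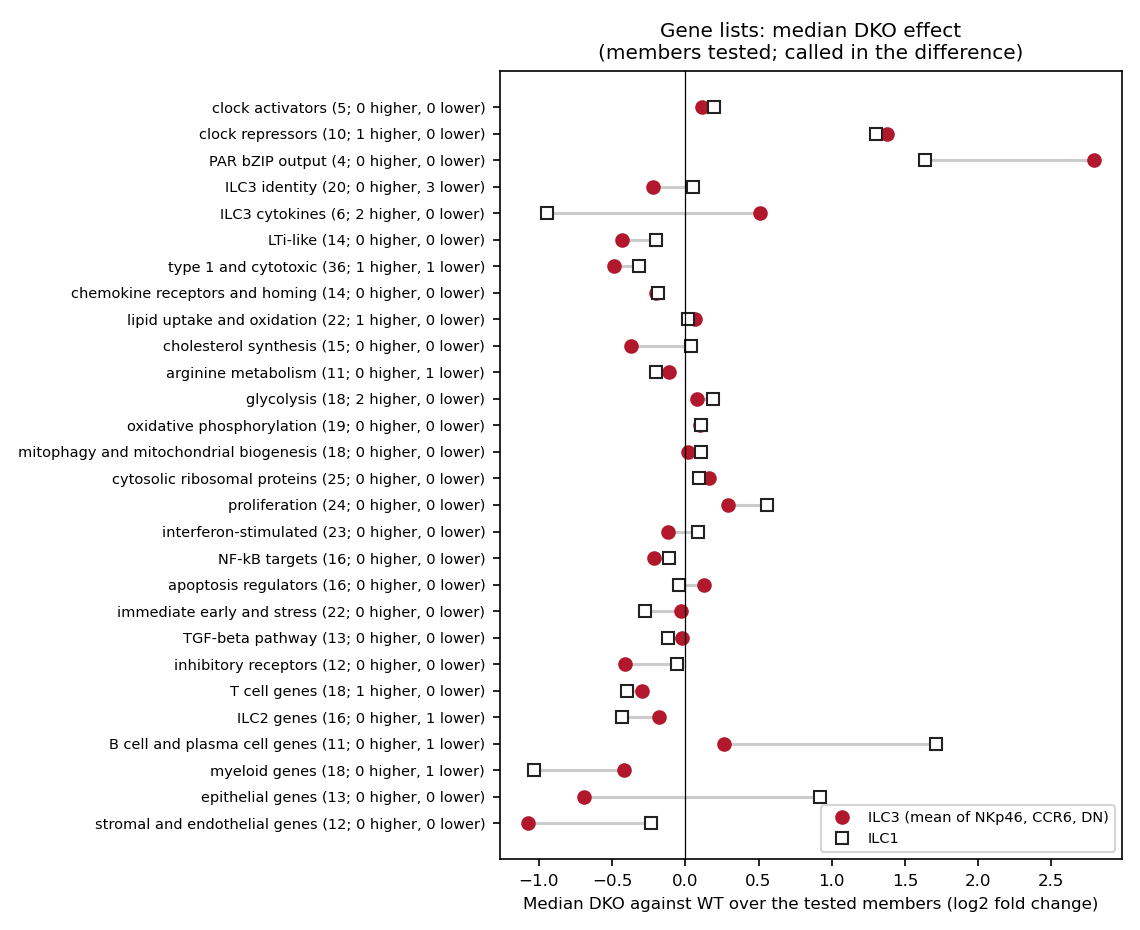
Median DKO effect over WT (log2 fold change) of 28 gene lists in ILC3 (mean of 3 subsets, filled) and in ILC1 (open); each label gives the members tested and those called in the difference. The PAR bZIP list, with 4 members, has the highest median in ILC3, and none of its members was called in the difference.

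Over 28 gene lists, 15 gene names accounted for the calls: Bhlhe41, Batf, Lta, Gpr183, Il17a, Il17f, Klrb1c, Klrc2, Lpl, Arg1, Pfkp, Slc16a3, Lat, Sdc1 and Ctss. No member was called of the lists for oxidative phosphorylation (19 tested), mitophagy and mitochondrial biogenesis (18), cytosolic ribosomal proteins (25), proliferation (24), interferon-stimulated genes (23), cholesterol synthesis (15) or apoptosis (16), at edgeR's adjusted threshold. Among markers of other cells, 1 of 18 myeloid, 0 of 13 epithelial and 0 of 12 stromal and endothelial genes were called, beside 0.803% of all genes. Myeloid genes summed to 363 to 438 CPM in DKO ILC1 and 479.6 to 1013 CPM in WT ILC1, with the neutrophil gene S100a8 at a mean of 6.66 CPM in DKO ILC1 and 102 CPM in WT ILC1. The called myeloid gene, Ctss, which encodes cathepsin S, averaged 180.1 CPM in DKO CCR6 and 307 CPM in WT CCR6, and 83.4 CPM in DKO ILC1 and 61.3 CPM in WT ILC1. Ctss lost its call in 8 of the 35 settings, among them without DKO ILC1 replicate 1 or 3, without WT ILC1 replicate 2 (-0.66, adjusted p = 0.073) and with CCR6 left out of the ILC3 mean (-0.56, adjusted p = 0.22).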

How the data were processed

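Bulk RNA was measured by sequencing in 24 libraries, from 10 ng of RNA amplified with 12 to 15 PCR cycles, per the labels' protocols. The authors deposited 1 table of raw read counts per gene. Per the submitters' processing notes the build was mm10, alignment software STAR 2.7.9a was listed, as were featureCounts 2.0.3 of Subread, Salmon 1.5.2, bcl2fastq, R 4.1 and DESeq2; the strand setting is not given in the sources here. The table's 55774 rows gave 55487 genes after 168 identifiers on several rows with identical counts were merged; 55141 were matched to GENCODE M21 (GRCm38) for names and positions. No sample column was left unused.

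From the counts, edgeR 4.0.16 (R 4.3.3) computed TMM-scaled CPM, kept 21286 genes with filterByExpr, and fitted 8 group means by robust quasi-likelihood (common biological coefficient of variation 0.573, 16 residual degrees of freedom). Standard errors are the log2 value divided by the root of F, and intervals are 95%. CPM spread is given as single libraries or ranges; counting error alone sets a library's precision at low counts. The script was tested on simulated data. Alternatives were DESeq2 1.42.0, limma 3.58.1 voom, RLE scaling, no filter, at least 5 CPM in 3 libraries, a non-robust fit, the replicate number as a block, each ILC3 subset left out, and each of the 24 libraries left out.

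The members and gene lists were chosen with earlier results of these data known. Named genes are the 12 largest differences each way among measured genes with one sign in the 3 subsets, up to 5 each way that are under 1 CPM in an arm, up to 6 with opposite effects, up to 4 called per list, and 23 fixed genes; 55 more were chosen after their values were seen, among them Acat1, Slc41a3, Chsy1, Fam210b, Furin, Cd7, Hes1, Il17re, Ncoa7, Ccdc184, St3gal6, Cyp2j6, Kcnk1, Add3, Dbp, Tef, Tox and Itgb4. The CACGTG search was also added after seeing the data.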

Additional observations from a re-analysis of the deposited data

Results flagged for a closer look

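The DKO effect in ILC3 and that in ILC1 differed at 171 genes by the test of the difference itself, as described in the report. Within ILC3, the DKO effect of 16 named genes differed among NKp46, CCR6 and DN by edgeR's quasi-likelihood test with 2 degrees of freedom, so that their mean over the subsets covers unequal effects. Cd7 (adjusted p = 2.75e-08) had effects of -2.79 in CCR6, 0.82 in NKp46 and -0.25 in DN. Add3 (3.02e-05) had effects of 1.98 in CCR6, -0.89 in NKp46 and 0.10 in DN. Ccnd2 (0.000266) had effects of 1.40 in CCR6, 0.23 in NKp46 and 0.06 in DN, and Vim (0.00253) of 1.23, -0.18 and 0.68 in the same order. Hes1 (0.0026) and Zfp36l2 (0.00587) had effects of -0.57 and -0.20 in DN and positive ones in NKp46 and CCR6. Fam210b (0.000338), Acat1 (0.000946) and Pfkp (0.0426) had their smallest effects in NKp46, of 0.65, 1.25 and 0.78. The adjusted p was 0.000946 for Klrb1c, 0.0026 for St3gal6, 0.00538 for Lat, 0.00538 for Mmp9, 0.00624 for Abi3bp, 0.0175 for Lgals1 and 0.0474 for Lpl, genes whose 3 subset effects had the same sign. With 3 libraries per group, single libraries were not screened for outliers.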

How the results depend on the processing

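All 171 genes kept their sign under each of the 35 alternatives that measured them, and 37 of the 95 named genes called were called under all 35; of 26 named genes not called, Crybb2, Hlf, Nr1d1 and Thra were called under at least 1. DESeq2 called 577 (241 higher, 336 lower; all 171 among them), with 525 for NKp46, 613 for CCR6 and 293 for DN minus ILC1, 722 for the ILC1 effect and 602 among the ILC3 subsets. Without the low-count filter 368 were called (124 higher, 244 lower; 296 for NKp46, 383 for CCR6, 136 for DN, 267 among the subsets). Voom called 129, 111 of them shared, with 33 for NKp46 and 328 among the subsets. The 5 CPM filter gave 206 among the subsets. With CCR6 left out of the mean 74 were called (35 higher, 39 lower), 73 of them among the 171, and 1333 for the ILC3 effect.

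Leaving out 1 library gave 107 to 484 calls (43 to 145 higher, 64 to 339 lower): 107 without DKO ILC1 replicate 3, 114 without DKO ILC1 replicate 2 and 484 without WT ILC1 replicate 3, 144 of these shared with the 171; without WT ILC1 replicate 2, the library that stood apart, 181 were called, 128 shared. Ranges were 58 to 500 for NKp46, 145 to 478 for CCR6 and 31 to 118 for DN minus ILC1, 1732 to 2818 for the ILC3 effect, 145 to 665 for the ILC1 effect and 77 to 395 among the subsets. The cause of these moves was not tested.

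Nothing says whether the replicate numbers pair the samples, and the main fit did not use them. Deviations of same-numbered libraries of a genotype correlated by -0.026 to 0.077 over 36 pairs, with a median of 0.037. The median over 72 pairs of other numbers within a genotype was -0.018. Of 24 libraries, 21 had their highest mean correlation with their own number, a hint of pairing from the data and not the design. With a replicate block within genotype 161 genes were called, 133 shared, and 202 among the subsets; with a block across genotypes 174, 148 shared, and 205 among the subsets. Low counts limit the 26 genes under 1 CPM in ILC1.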

Other observations

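Among lists with no member called, 11 of 12 inhibitory receptor genes had a difference below 0, with a median of -0.49 beside -0.04 over all genes tested, of which 10008 of 21286 had a difference above 0. In the ILC3 mean 6 of the 12 were lower in DKO and 1 higher, beside 5.73% of all genes lower and 4.28% higher, and in ILC1 none was called by edgeR, beside 1.06% of all genes. Btla was the member above 0, at mean levels of 2.2 CPM or less in every group. Inhibitory receptors were 1 of 28 lists. Other lists with no called member leaned below 0 too, and some leaned above. Cholesterol synthesis genes had 2 of 15 differences above 0 and a median of -0.28. Epithelial genes had 4 of 13 above 0 and a median of -1.08. Nos2, inducible nitric oxide synthase, averaged 2.05 CPM in DKO NKp46 and 32.9 CPM in WT NKp46, 0.132 in DKO CCR6 and 27.9 in WT CCR6, and 0.651 in DKO DN and 11.8 in WT DN, against 0.499 in DKO ILC1 and 0.726 in WT ILC1; the difference was not called, at an adjusted p of 0.19 by edgeR.

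A difference of log2 effects compares ratios. On the CPM scale, the same contrast of group means had the same sign at 157 of the 171 genes and the other sign at 14. Among these 14 were Il17re, Basp1, Zfp385c, Klri1, Klri2, Klrb1c, Spry1 and Plpp3. For Nr1d1, which is not among the 171, the signs also differed: its gain was smaller in ILC3 on the log2 scale, and larger by 481 CPM on the CPM scale.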
